A study of Mus musculus and Canis lupus familiaris with 12 samples.

Results

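ETS factors are transcription factors that share a winged helix-turn-helix DNA-binding domain, the ETS domain, which reads sites around the core GGAA. The family was followed here through 10 genes, Ets1, Ets2, Elf1, Elf3, Elf4, Etv1, Etv4, Etv5, Elk3 and Fli1, taken as the rows whose gene name matched one of these symbols regardless of case. All 10 had a row among the 78317 genes counted in mouse DLM8 osteosarcoma cells and among the 30424 counted in dog Gracie osteosarcoma cells. Poly(A)-selected RNA was sequenced from 4 groups, each with 3 libraries labelled wild type. These were DLM8 without treatment, DLM8 after 6 h in 50 nM omacetaxine (OMX), Gracie without treatment, and Gracie after 6 h in 50 nM OMX. Omacetaxine is a plant alkaloid that stops the ribosome in the elongation step of protein synthesis. The treatment protocol names DMSO for the control wells, whereas the sample labels read untreated. Each species is represented by 1 cell line, and no label calls the replicates separate cultures. The p-values below thus cover the library-to-library spread, which may be purely technical.

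Many ETS factors end signalling pathways. ERK, the terminal MAP kinase, phosphorylates ETS1, ETS2, the ternary complex factors (ELK1, ELK3 and ELK4) and the PEA3 group (ETV1, ETV4 and ETV5), and thereby changes their activity. ETS1 and RUNX2 bind neighbouring sites in genes of osteoblasts, FLI1 is the ETS partner of the EWSR1 fusion of Ewing sarcoma, and ELF3 is known mainly from epithelia, where inflammatory cytokines induce it.

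The DLM8 libraries held 9099313 to 11392715 counts and the Gracie libraries 2385102 to 3381831. With edgeR's quasi-likelihood model at an adjusted p under 0.05, OMX gave 3311 higher and 2726 lower genes of 17109 in DLM8, and 1308 higher and 840 lower genes of 10423 in Gracie. These genes are termed called. Scaling by library size alone gave 3977 higher and 1991 lower in DLM8, and 1084 higher and 1204 lower in Gracie, and it moved the median of all genes from 0.02 to 0.16 in DLM8 and from -0.01 to -0.14 in Gracie (log2). Changes are therefore relative to the median gene. In DLM8, 5 of the 9 tested osteoblast markers were lower, and the summed level of all 10 went from 2080 to 2900 CPM (counts relative to the library's TMM-scaled size) in untreated libraries to 871 to 1330 CPM with OMX. In Gracie the markers SPP1, IBSP, ALPL and POSTN had at most 5 counts in any library, and the sum of 9 osteoblast markers was 131 to 225 CPM untreated and 84.7 to 112 CPM with OMX. Of the 5 tested there, SPARC was lower (109 to 24.8 CPM), SP7, an osteoblast transcription factor, was higher (5.95 to 30.5 CPM), and 3 were not called. The part of these shifts in the results below was not tested. In bulk RNA, fewer cells of a kind and less RNA per cell cannot be told apart.

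A limit of strand touches every value. Alone among mitochondrial mRNAs, that of mt-Nd6 is encoded on the light strand. In the 6 DLM8 libraries its row exceeded the median row of the remaining 12 such genes by 49.9 to 94.1 times, and 6 of those 12 had under 10 counts in every library. The strand setting of the counting is not given in the sources used here. A value below, also a rise or fall, is that of the gene's own row, which may hold reads of the opposite strand. Neither its level nor its change can thus be read as that of the gene's mRNA. Where another counted gene overlaps a member on the opposite strand in the mouse annotation, the counts of that row are given beside it. The same limit may hold in Gracie, for which gene positions were not used here.

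The rows of Ets1, Ets2 and Elf1 rose with OMX in both lines, by 1.99-fold to 3.59-fold. In DLM8 the Elf3 row went from 0 counts to a level seen in all 3 treated libraries. Etv1, Etv4, Etv5 and Elk3 were not called in either line, and Fli1 had 0 counts in all 12 libraries. Beside Elf3, DLM8 had 3 higher and 0 lower members by edgeR and 5 not called, where 35.3% of all tested genes were called, 19.4% higher and 15.9% lower. Elf3 passed the filter on low counts through its OMX libraries alone and so had to differ; its call is left out of this count and its p is not given. Gracie had 3 higher and 0 lower members by edgeR, with 4 of the 7 tested not called, against 20.6% called among all tested genes, 12.5% higher and 8.06% lower. In both lines 0 members were lower at an unadjusted p under 0.05, and DESeq2 called the same genes. The median log2 fold change of the tested members was 0.53 in DLM8, also with Elf3 at its lower bound, and 0.21 in Gracie, beside 0.02 and -0.01 over all tested genes. Beside Elf3, which had to differ, no OMX library overlapped the untreated ones for Ets1, Ets2, Elf1 and Etv4 in DLM8, all of them higher. In Gracie this held for 3 members, also higher. Among all tested genes 25.6% lay wholly above and 23.4% wholly below in DLM8, and 21.5% and 18.2% in Gracie.

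**Figure D1:**
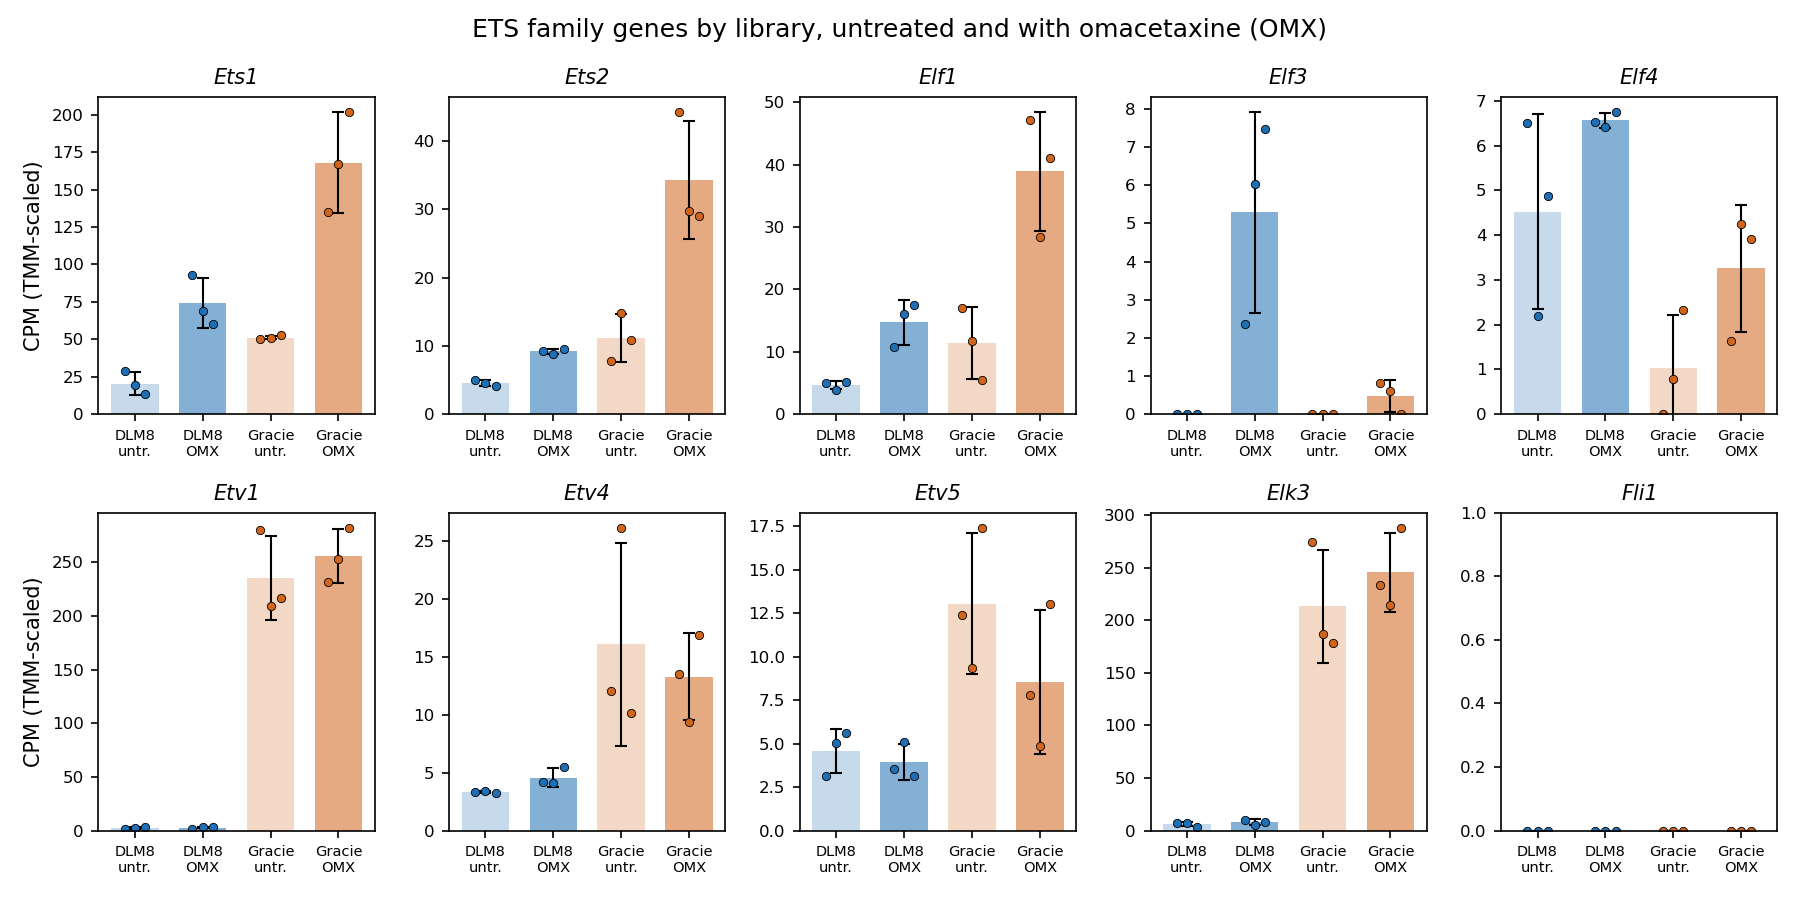
Level of each of the 10 genes in every library, as CPM on linear axes that differ between panels; bars are means of 3 libraries, whiskers the SD, points the libraries. Ets1, Ets2 and Elf1 with OMX lie above the untreated libraries in both lines, Elf3 is at 0 in all untreated libraries, and Fli1 is at 0 throughout; levels of the 2 species come from separate tables and are not compared.

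Ets1 encodes the founding member of the family and gave the highest value per exon length of the 10 rows in DLM8. Its row (ENSMUSG00000032035) held 28.6, 19.5 and 13.5 CPM in untreated replicates 1 to 3 and 92.7, 68.9 and 60.5 CPM in OMX replicates 1 to 3. The lowest OMX library was thus above the highest untreated one, although the untreated libraries themselves differed. Untreated libraries averaged 20.5 ± 7.61 CPM and OMX libraries 74.1 ± 16.7 CPM (SD, n = 3 each). On the log2 scale Ets1 rose by 1.85 (SE 0.26), which is 3.59-fold, with an adjusted p of 0.000189 by edgeR's quasi-likelihood test. In Gracie the ETS1 row (ENSCAFG00000010304) held 50.3, 50.6 and 52.6 CPM in the untreated libraries and 135, 167 and 202 CPM with OMX. The Gracie untreated libraries lay close together, far below all of the treated ones. The log2 fold change was 1.72 (SE 0.22), or 3.28-fold, with an adjusted p of 0.00014 (edgeR). By p, ETS1 ranked 136 of 10423 genes in Gracie, and Ets1 ranked 974 of 17109 in DLM8. One gene lies opposite Ets1 in the mouse annotation, the antisense RNA Gm27240, whose exons share 0 bases with it and whose row held 0.00561 times its counts.

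The gene Ets2, which encodes the closest relative of ETS1 and is itself a target of ERK signalling, rose in both lines. In DLM8 its row (ENSMUSG00000022895) held 5.01, 4.60 and 4.18 CPM untreated and 9.19, 8.88 and 9.55 CPM with OMX. Both groups were tight, with SDs of 0.415 and 0.339 CPM, and did not overlap. Ets2 rose 1.99-fold, with a log2 change of 1.00 (SE 0.27; edgeR adjusted p = 0.0131). In Gracie the ETS2 row (ENSCAFG00000009978) held 7.75, 14.8 and 10.8 CPM untreated and 44.3, 29.7 and 29.0 CPM with OMX. Every treated library stood well above the untreated ones, with OMX replicate 1 the highest, and ETS2 rose 3.07-fold, with a log2 change of 1.62 (SE 0.36; edgeR adjusted p = 0.00579). No annotated gene lies opposite Ets2.

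Elf1 encodes an ETS factor of the ELF group, best known from lymphoid cells but widely expressed. In DLM8 its row (ENSMUSG00000036461) held 5.01, 3.95 and 5.11 CPM untreated and 10.7, 16.1 and 17.5 CPM with OMX. Again no treated library overlapped the untreated ones, and the log2 fold change was 1.65 (SE 0.28), or 3.14-fold, with an adjusted p of 0.000752 (edgeR). In Gracie ELF1 (ENSCAFG00000004817) held 17.0, 11.7 and 5.42 CPM untreated and 47.2, 28.4 and 41.1 CPM with OMX. The untreated libraries were spread over a 3-fold range, but all lay below the treated ones, and the log2 fold change was 1.77 (SE 0.40), or 3.40-fold (adjusted p = 0.00648, edgeR). In mouse the exons of Elf1 share 327 bases with those of Wbp4 on the opposite strand, a gene of a spliceosome-associated protein. The Wbp4 row held 1.34 times the counts of the Elf1 row and rose too, by 0.68 (SE 0.23, adjusted p = 0.0365, edgeR). With both rows summed, the Elf1 value in DLM8 was 1.07 and stayed called. In Gracie the WBP4 row was not called (log2 fold change -0.35, SE 0.46, adjusted p = 0.627, edgeR).

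Elf3 encodes an epithelial ETS factor of the ESE group. Its DLM8 row (ENSMUSG00000003051) had 0 counts in each untreated library and 24, 64 and 72 counts in OMX replicates 1 to 3, or 2.37, 6.04 and 7.48 CPM. All 3 treated libraries thus had counts in this row and no untreated one did, with replicate 1 lowest. This was at least 50.1-fold higher, taking a floor of 3 counts over the untreated group, or at least 25-fold higher with counts halved as if both mates of a pair had been counted apart. Such bounds cover counting error only. In Gracie ELF3 (ENSCAFG00000010602) had 0 counts untreated and 2, 2 and 0 counts with OMX, too few to be tested. Among epithelial markers in DLM8, Epcam, Krt18 and Krt5 had 0 counts in all 6 libraries, and the 6 epithelial markers summed to at most 0.697 CPM untreated and 1.68 to 5.29 CPM with OMX, without overlap. Krt14 gave 5.29 and 3.22 CPM in OMX replicates 2 and 3, and Cdh1 0.988 CPM in OMX replicate 1. Whether such cells have a part in the Elf3 value was not tested. The antisense RNA Gm26642 shares 162 exon bases with Elf3 on the opposite strand. Its row held 2640, 2761 and 2716 counts untreated and 2356, 3256 and 3600 with OMX, 108 times the sum of the Elf3 row, and no call was made for it (log2 fold change 0.08, SE 0.17, adjusted p = 0.733, edgeR). With both rows summed no change was called (log2 fold change 0.11, adjusted p = 0.652, edgeR). At 108 times the counts the Gm26642 row sets that sum, which therefore cannot show whether the Elf3 row changed.

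**Figure D2:**
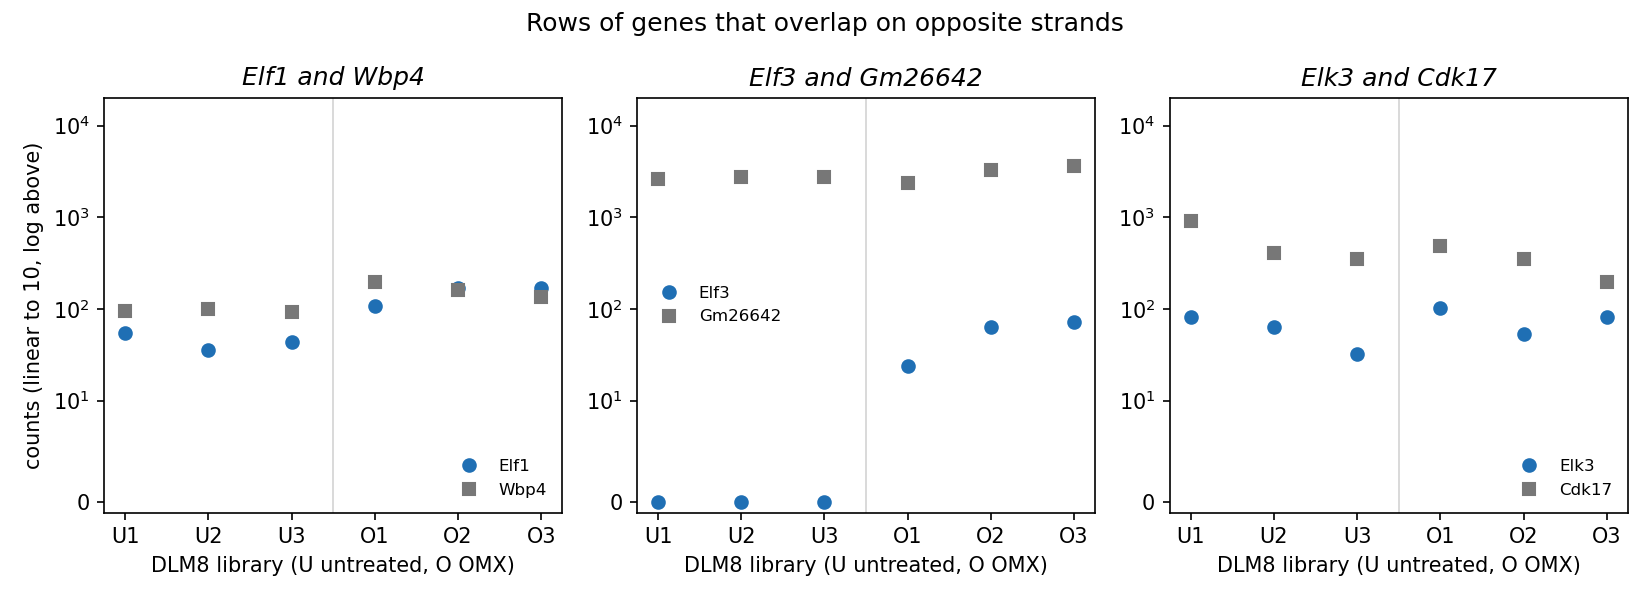
Counts in the 6 DLM8 libraries for 3 members (circles) and the gene that shares exon bases with each on the opposite strand (squares), on an axis that is linear to 10 and logarithmic above. Elf3 goes from 0 to 24, 64 and 72 counts while Gm26642 stays between 2356 and 3600, Wbp4 is higher with OMX beside Elf1, and Cdk17 holds 6.50 times the counts of Elk3.

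Promoters of Elf3, Ets2 and Elf1, whose rows rose in DLM8, are shown as a description, and a shared control of these genes was not tested. RefSeq promoters of build GRCm38.p6, which span 250 bases before to 50 after a gene's start, matched 7 of the 10 members, with none for Ets1, Etv4 and Fli1. They are given 5′ to 3′ on the gene's strand, at chr1:135258423-135258722 for Elf3 (minus strand), chr16:95702157-95702456 for Ets2 (plus strand), and chr14:79480944-79481243 and chr14:79515424-79515723 for the outer and inner start of Elf1 (plus strand). Coordinates are of that build and not of the GRCm39 build named for the counts. Capitals mark matches to the NF-kB consensus in Elf3 and to the AP-1 motif TGANTCA in the inner Elf1 promoter.
Elf3: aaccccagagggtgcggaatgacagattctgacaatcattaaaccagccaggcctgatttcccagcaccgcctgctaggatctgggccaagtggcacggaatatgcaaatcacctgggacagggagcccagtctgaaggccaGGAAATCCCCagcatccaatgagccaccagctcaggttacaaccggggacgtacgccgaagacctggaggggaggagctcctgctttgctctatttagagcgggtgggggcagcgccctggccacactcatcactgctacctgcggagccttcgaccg
Ets2: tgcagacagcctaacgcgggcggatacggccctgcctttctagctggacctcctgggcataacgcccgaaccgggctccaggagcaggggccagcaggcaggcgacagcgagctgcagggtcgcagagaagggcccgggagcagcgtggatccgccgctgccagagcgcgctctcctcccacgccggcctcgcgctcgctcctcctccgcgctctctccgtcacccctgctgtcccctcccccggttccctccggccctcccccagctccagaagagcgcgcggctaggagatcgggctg
Elf1 outer: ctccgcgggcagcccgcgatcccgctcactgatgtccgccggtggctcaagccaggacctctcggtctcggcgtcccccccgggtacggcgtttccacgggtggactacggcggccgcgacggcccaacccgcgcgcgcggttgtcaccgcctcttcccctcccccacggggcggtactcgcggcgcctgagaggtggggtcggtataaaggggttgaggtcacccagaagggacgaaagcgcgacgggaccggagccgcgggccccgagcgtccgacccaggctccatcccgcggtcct
Elf1 inner: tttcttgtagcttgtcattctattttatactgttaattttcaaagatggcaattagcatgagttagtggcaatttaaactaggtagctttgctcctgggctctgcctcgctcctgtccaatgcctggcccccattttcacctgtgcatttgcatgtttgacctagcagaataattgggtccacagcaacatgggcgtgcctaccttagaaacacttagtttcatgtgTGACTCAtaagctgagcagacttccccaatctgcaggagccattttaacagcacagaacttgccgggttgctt

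Both strands were searched for the strong ETS site CCGGAA and its core GGAA, the AP-1 motif TGANTCA, the cAMP response element TGACGTCA, the NF-kB consensus and the CArG box of serum response factor. In the Elf3 window 1 NF-kB match began at position -108 from the start, and it overlaps a GGAA core, whereas 5.8% of 32851 promoters of this length held an NF-kB match. The Elk3 window, of a gene that was not called, also held 1 NF-kB match, at -183. AP-1 matches stood at -23 in the inner Elf1 window and at -39 in an Elf4 window, where 7.81% of all promoters held one. None of the 11 member windows held the strong ETS site, the cAMP response element or a CArG box, which 14.9%, 1.79% and 1.63% of promoters held. The core GGAA was in 10 of the 11 windows and in 96.0% of all promoters, with 4 copies in the Elf3 window, 2 and 1 in the outer and inner Elf1 windows, and 1 in that of Ets2. A match describes the letters of this window and is not a bound site.

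In the 3′ untranslated region, the longest annotated form of Ets1, Ets2 and Elf1 held 6 copies each of the pentamer ATTTA, a core of AU-rich elements that mark short-lived mRNAs. Per kilobase this was 1.77 in Ets1, 3.13 in Ets2 and 3.47 in Elf1, beside a median of 1.32 over 10691 tested genes. Of the members not called or not tested in DLM8, Etv1 held 3.39 per kilobase, Fli1 2.54, Etv5 2.31, Elk3 1.92, Elf4 0.276 and Etv4 0. All of these but Elf4 and Etv4 lay above Ets1. Elf3 held 1.44. The nonamer TTATTTATT was in none of the 10 members and in 8.47% of those genes.

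The PEA3 group, Etv1, Etv4 and Etv5, are ETS activators whose own transcripts are widely used as readouts of ERK activity, and none of the 3 was called. ETV1 was among the best-counted members in Gracie, with 280, 209 and 217 CPM untreated and 232, 253 and 282 CPM with OMX. The groups overlapped, and the log2 fold change of 0.12 (SE 0.20, adjusted p = 0.708, edgeR) had a 95% interval of -0.30 to 0.54. In DLM8 the Etv1 row held only 1.86 to 3.25 CPM untreated and 1.78 to 3.02 CPM with OMX, a log2 fold change of 0.04 with an interval of -0.97 to 1.05. Etv4 in DLM8 held 3.34, 3.40 and 3.25 CPM untreated and 4.15, 4.06 and 5.50 CPM with OMX. Its groups did not overlap, but the log2 fold change of 0.45 (SE 0.36) was not called (adjusted p = 0.348, edgeR). Gracie ETV4 held 12, 26.1 and 10.1 CPM untreated and 13.5, 9.38 and 16.9 CPM with OMX (log2 fold change -0.27, SE 0.45, adjusted p = 0.704, edgeR). Etv5 had the lowest estimate of any member in each line. It was -0.22 (SE 0.38) in DLM8, from 3.16, 5.04 and 5.58 to 3.56, 5.10 and 3.11 CPM, and -0.61 (SE 0.49) in Gracie, from 12.4, 9.34 and 17.4 to 7.80, 4.84 and 13.0 CPM. Both missed the threshold (adjusted p = 0.687 and 0.414, edgeR), and the Gracie interval ran from -1.67 to 0.45.

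Elk3, a ternary complex factor that represses serum response factor targets until it is phosphorylated, was not called either. In Gracie it held 275, 187 and 178 CPM untreated and 234, 215 and 288 CPM with OMX, overlapping groups with a log2 fold change of 0.21 (SE 0.22, interval -0.26 to 0.68, adjusted p = 0.541, edgeR). In DLM8 it held 7.52, 7.01 and 3.72 CPM untreated and 10.2, 5.00 and 8.41 CPM with OMX (log2 fold change 0.36, SE 0.36, adjusted p = 0.458, edgeR). The exons of Elk3 share 316 bases with Cdk17, a cyclin-dependent kinase gene on the opposite strand, whose row held 6.50 times its counts. With both rows summed the direction reversed, to -0.58 (adjusted p = 0.141, edgeR). Elf4, of the ELF group, held 6.50, 2.19 and 4.88 CPM untreated and 6.52, 6.42 and 6.75 CPM with OMX in DLM8. The treated libraries were nearly equal and the untreated ones wide, and the log2 fold change of 0.53 (SE 0.38) was not called (adjusted p = 0.309, edgeR). Gracie ELF4 had 0, 2 and 6 counts untreated and 4, 14 and 12 with OMX and was not tested.

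**Figure D3:**
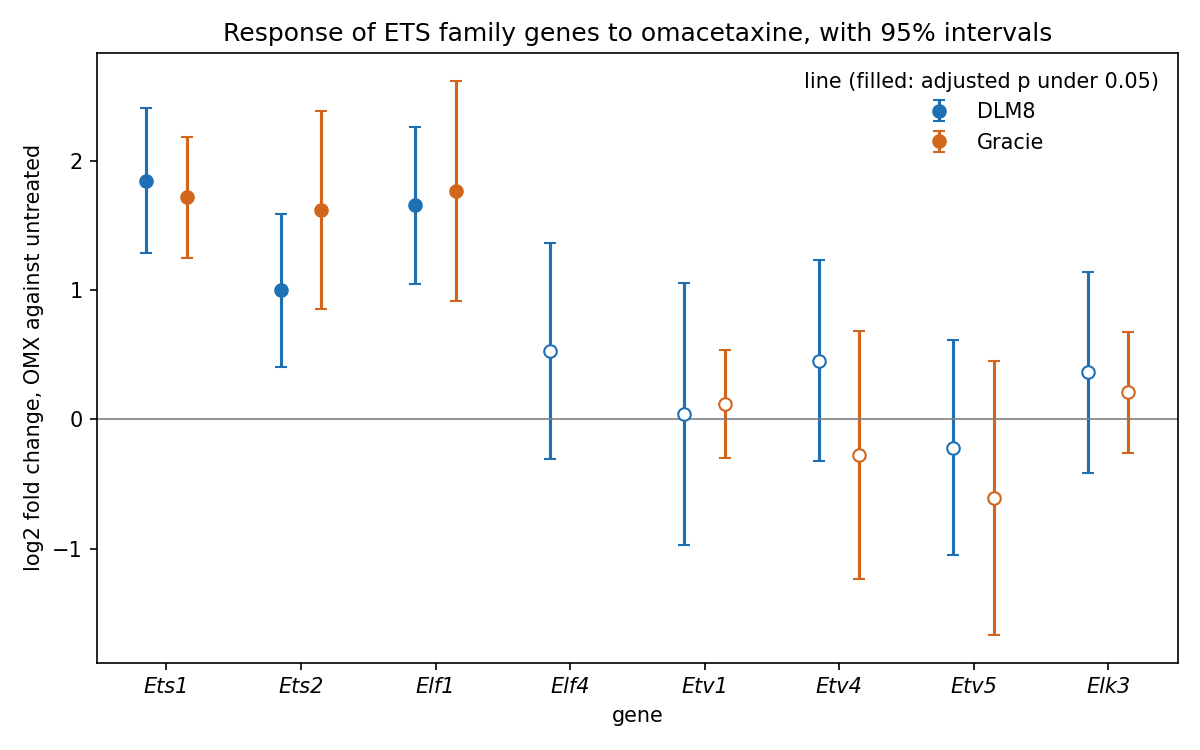
Log2 fold change with OMX of the 8 members with untreated counts, per line, with 95% intervals from the fit; filled points have an adjusted p under 0.05 (edgeR). Intervals of Ets1, Ets2 and Elf1 lie above 0 in both lines (lowest bound 0.41, Ets2 in DLM8), those of the other genes include 0, and Elf4 was tested in DLM8 alone.

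Per kilobase of exon, the order of the untreated DLM8 rows was Ets1 at 2.42 ± 0.898 CPM per kb, Elk3 at 1.34 ± 0.454, Etv5 at 1.12 ± 0.31, Etv4 at 1.07 ± 0.0233, Ets2 at 0.796 ± 0.0718, Elf4 at 0.736 ± 0.354, Elf1 at 0.696 ± 0.0961 and Etv1 at 0.189 ± 0.0529 (SD, n = 3). Libraries of neighbours in this order did not overlap between Etv4 and Ets2 or between Elf1 and Etv1, and overlapped in all other neighbouring pairs. With OMX, Ets1 stood at 8.74 ± 1.97 CPM per kb, followed by Elf3 at 2.39 ± 1.19, Elf1 at 2.19 ± 0.54, Elk3 at 1.73 ± 0.577 and Ets2 at 1.59 ± 0.0586. The lowest Ets1 library with OMX (7.14 CPM per kb) was above the highest Elf3 library (3.37), so Ets1 led the treated rows in every library. Lengths are those of GENCODE M21, and levels of rows remain subject to the limit of strand.

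Between lines, the response of the same gene was compared as the interaction of line and treatment over 7566 genes tested in both, of which 12.1% were called, 5.88% with the response in DLM8 above that in Gracie and 6.2% below it. Of the 7 members in that test, 0 were called by edgeR or DESeq2, and 0 had an unadjusted p under 0.05. The median difference over all genes was -0.12. For Ets1 the response in DLM8 minus that in Gracie was 0.13 (SE 0.35, interval -0.61 to 0.87, adjusted p = 0.86, edgeR). Elf1 differed by -0.12 (SE 0.51, interval -1.18 to 0.94, adjusted p = 0.918, edgeR). Of the 3 shared rises, the estimates lay farthest apart for Ets2, at -0.62 (SE 0.44, interval -1.54 to 0.29, adjusted p = 0.394, edgeR). Etv4, with estimates of opposite sign in the lines, differed by 0.73 (SE 0.57, adjusted p = 0.457, edgeR).

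Of the 18 other genes of the family, 17 had a row in mouse and 16 in dog, and 7 and 8 were tested. DLM8 had Erf and Etv3 higher and Gabpa lower, with 4 not called, so 3 of 7 were called beside 35.3% of all tested genes. In Gracie 0 of 8 were called by edgeR or DESeq2, and 1 in each direction passed 0.05 before adjustment, ETV3 (log2 fold change 0.83, SE 0.38) and ETV6 (-0.89, SE 0.41). Erf and Etv3 encode the ERF pair, ETS repressors, and neither faces an annotated gene. Erf held 238, 149 and 138 counts untreated and 627, 438 and 385 with OMX, so that it rose by 1.39 on the log2 scale (SE 0.22; edgeR adjusted p = 0.000458). Etv3 went from 22, 28 and 10 to 62, 68 and 68 counts (1.63, SE 0.40, adjusted p = 0.00786, edgeR). ERF in Gracie stood at 0.22 (SE 0.33, adjusted p = 0.674, edgeR), and the difference between lines of 1.18 (SE 0.43) was not called (adjusted p = 0.0778, edgeR). Gabpa, the DNA-binding part of a factor for mitochondrial and housekeeping genes, fell by 0.79 (SE 0.13, adjusted p = 0.000464, edgeR), from 229 ± 12.4 to 133 ± 12.2 CPM (SD, n = 3). It lies opposite Atp5j, a subunit gene of ATP synthase, whose row had 0.493 times as many counts (-0.14, SE 0.17, not called). GABPA in Gracie was not called (-0.51, SE 0.32, adjusted p = 0.289, edgeR).

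**Figure D4:**
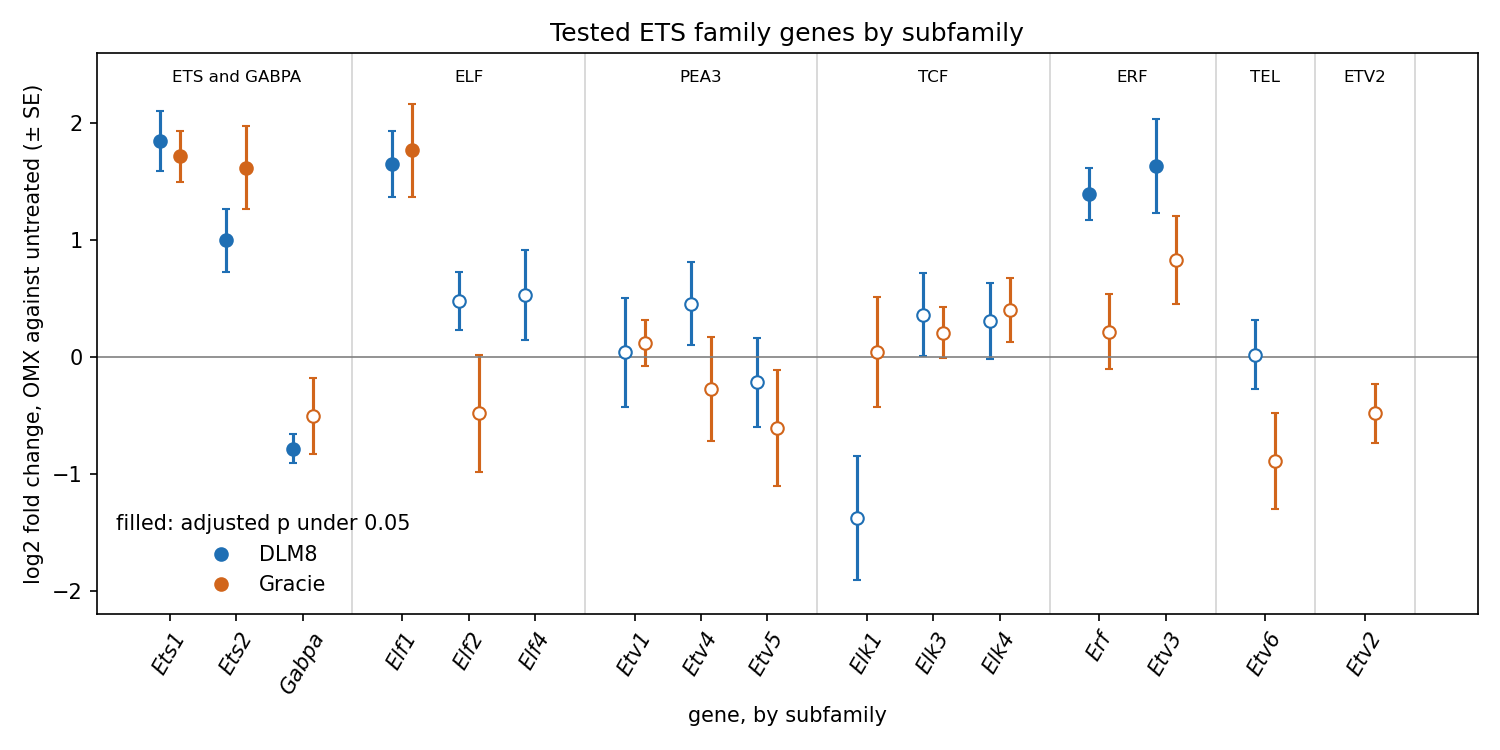
Log2 fold change with OMX of the tested ETS family genes by subfamily, with SE; filled points have an adjusted p under 0.05 (edgeR), and Elf3 is left out because its untreated counts are 0. Filled points above 0 are Ets1, Ets2 and Elf1 in both lines and Erf and Etv3 in DLM8, and Gabpa in DLM8 is the filled point below 0.

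Further family members had counts with OMX alone. In DLM8 Spib, a lymphoid factor of the SPI group, had 0 counts untreated and 4, 50 and 61 with OMX, at least 36.0-fold higher against the same floor or 18.2-fold with halved counts, and Elf5, an epithelial factor close to Elf3, had 0 untreated and 2, 3 and 16 with OMX. In Gracie EHF, the third epithelial ESE factor, had 0 untreated and 4, 15 and 9 with OMX, at least 8.19-fold higher or 4.1-fold with halved counts, whereas Ehf in DLM8 had 2, 10 and 8 counts untreated and 0, 4 and 6 with OMX. None of these passed the filter, so none was tested, and OMX replicate 1 was low for Elf3 and Spib in DLM8. Rows of this kind were more frequent in that direction across the whole table. In DLM8 805 rows had 0 counts untreated and counts in all 3 OMX libraries, and 63 rows had the reverse, and in Gracie the numbers were 403 and 22. The 805 were 1.54% of the 52158 DLM8 rows with 0 counts untreated, and the 403 were 2.47% of 16314 in Gracie. Erg had 0 counts untreated and 2 with OMX in DLM8, and Fev, Spic and Etv2 had 0 in all 6 DLM8 libraries.

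In the mouse genome Ets1 and Fli1 are neighbours on chromosome 9, as are Ets2 and Erg on chromosome 16, each pair with 0 protein-coding genes between them (GENCODE M21). Ets1 and Ets2 rose, while the Fli1 row stayed at 0 and the Erg row at 0 to 2 counts in every DLM8 library. Gm27201, the antisense gene opposite Fli1, also had 0 counts in all 6. Fli1 and Erg are known from endothelium and blood. Of 6 endothelial markers in DLM8, Kdr, Tek and Tie1 had 0 counts throughout, and Cdh5 had 0 untreated and 14, 36 and 49 counts with OMX. The Vwf row had 12 to 56 counts. Of 6 blood markers, Ptprc had 0 to 2 counts and Itgam 0, while the Csf1r row had 1017 to 2118. The endothelial sum was 1.39 to 3.25 CPM untreated and 4.94 to 11.3 CPM with OMX, and the blood sum 118 to 126 and 125 to 210 CPM. In Gracie the FLI1 row was at 0 as well, and ERG held 1, 4 and 0 counts untreated and 4, 10 and 0 with OMX. There TEK, PTPRC and CD3E had 0 counts. The endothelial sum, mostly the VWF row, was 17 to 83.6 CPM untreated and 41.2 to 86.6 CPM with OMX. The blood sum, mostly the CD79A row, was 270 to 336 and 233 to 264 CPM. The part of such cells in the results was not tested.

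Among 36 partners and regulators of ETS factors, 35 were tested in each line. DLM8 had 6 higher, 9 lower and 20 not called, where 19.4% of all tested genes were higher and 15.9% lower. Gracie had 8 higher, 0 lower and 27 not called by edgeR, where 12.5% of all tested genes were higher and 8.06% lower. DESeq2 also gave 0 lower in Gracie, and 3 were lower there at an unadjusted p under 0.05. The list medians were -0.05 and 0.29 (log2), beside 0.02 and -0.01 over all genes. Crebbp, the gene of the CBP acetyltransferase that ETS1 recruits, rose in both lines, by 1.31 (SE 0.25) in DLM8 and 1.40 (SE 0.21) in Gracie. In DLM8 Atxn1, the gene of a partner of the PEA3 repressor Capicua, rose by 1.11 (SE 0.29). Map2k1, the gene of the ERK kinase MEK1, fell by 1.27 (SE 0.26), Nras by 1.12 (SE 0.28) and the MEK2 gene Map2k2 by 0.67 (SE 0.19). The row of Gmpr, opposite Atxn1, held 4.46 times its counts and rose by 1.32. In Gracie RUNX1, a partner in DNA binding, rose by 2.02 (SE 0.35), and MRTFA, a coactivator of serum response factor, by 1.28 (SE 0.24). The response of Map2k1 in DLM8 minus that in Gracie was -1.65 (SE 0.34, adjusted p = 0.0032, edgeR).

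Genes known as outputs of ETS factors or ERK, 42 in all, had 15 higher, 2 lower and 18 not called of 35 tested in DLM8, with a median of 0.39, and 16 higher, 4 lower and 14 not called of 34 in Gracie, with a median of 0.62. The 15 include Egr2, with 0 counts untreated and 51, 26 and 28 with OMX, which passed the filter through its OMX libraries alone and so had to differ. Egr1, Ccl2, Fos, Dusp6 and Spry4, also among the 15, had at most 8 counts in any untreated DLM8 library. They too passed the filter through their OMX libraries alone, which therefore had to lie above the untreated ones. Their calls as higher thus carry little weight. Over all tested genes 35.3% and 20.6% were called, with medians of 0.02 and -0.01. Of these genes 19.4% were higher and 15.9% lower in DLM8, and 12.5% and 8.06% in Gracie. This list holds many early response genes. Egr1, a ternary complex factor target, rose by 8.34 (SE 0.42) in DLM8, the chemokine gene Ccl2 by 6.71 (SE 0.42) and the early response gene Ier2 by 2.89 (SE 0.22). Untreated counts were only 0, 4 and 6 for Egr1 and 6, 0 and 6 for Ccl2, so the size of both rises is uncertain. Their direction was set by the filter, as given above. Spp1, the osteopontin gene, fell by 2.01 (SE 0.18) and the matrix gene Tnc by 1.42 (SE 0.16) in DLM8, the latter with an opposite row, 8030451A03Rik, that held 9.99 times its counts and fell by 1.23. In Gracie IER2 rose by 2.63 (SE 0.28), the ephrin receptor gene EPHA2 by 1.64 (SE 0.20) and the AP-1 gene FOSL1 by 1.5 (SE 0.19). The cyclin D1 gene CCND1 fell by 1.77 (SE 0.25), the urokinase receptor gene PLAUR by 1.37 (SE 0.23) and the ERK phosphatase gene DUSP4 by 1.71 (SE 0.33). Dusp6, an ERK phosphatase gene often read beside the PEA3 group, was picked after its values were seen. In DLM8 it rose by 2.59 (SE 0.56) from few counts, 6, 4 and 6 untreated and 26, 33 and 45 with OMX. In Gracie, with a mean of 116 CPM untreated, it had -0.54 (SE 0.22, adjusted p = 0.1, edgeR). Its responses differed by 3.11 (SE 0.44). No p is given for this difference, because the Dusp6 row in DLM8 passed the filter through its OMX libraries alone.

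The genes whose level followed Ets1 and Ets2 most closely over the 6 libraries of a line are given as a description, with no test; the points share 2 groups of 3 libraries. In DLM8 they were Gpx3 (Pearson r = 0.999), Plec and H2-Q4 for Ets1, and Acp2 (0.9991), Klf10 and Gm48900 for Ets2, out of 7723 genes compared. In Gracie they were GOLGA5 (0.9976), EHD1 and H2AC17 for ETS1, and PIGB (0.9991), PI4KB and TRMT10C for ETS2, out of 7910.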

How the data were processed

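RNA of 12 libraries was sequenced after poly(A) selection with the Universal Plus mRNA-Seq kit, per the labels' protocols. Raw counts per gene were deposited in 1 table for each species. The tools STAR, featureCounts and Subread and the builds CanFam3.1, mm39 and GRCm39 are named, per the submitters' processing notes. No source used here gives their roles or versions, the strand setting or the handling of mates. Even values made up 67.7% to 73.7% of the nonzero counts, so a count may not be 1 molecule.

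The 2 lines had separate fits in edgeR 4.0.16 under R 4.3.3 (filterByExpr, TMM, quasi-likelihood F-test, Benjamini-Hochberg over all genes tested, called at an adjusted p under 0.05). Fold changes are OMX against untreated on the log2 scale, and the SE is the absolute log2 fold change over the square root of F. Intervals of 95% use the median degrees of freedom of the fit. CPM use TMM-scaled library sizes. The interaction was fitted over 7566 shared symbols with scaling from each line. An exact two-sided permutation test of 3 against 3 libraries cannot go below 0.1, the value it gave for Ets1, Ets2 and Elf1 in both lines and for Elf3 in DLM8. The procedure was tested on simulated data.

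The main fits did not pair libraries by replicate number. The correlation of deviations of same-numbered libraries was 0.037 to 0.203 in DLM8 and -0.02 to 0.182 in Gracie, not over 0.1 in every pair. Sequences and lengths came from RefSeq (GRCm38.p6) and GENCODE M21. The naming rule took all members, called family genes, and for the other lists the 3 called genes per direction and line with the smallest p and a mean log2 CPM of at least 3. A gene that this rule names is not reported here. Members and lists were chosen with earlier results of these data known. Alternatives were other scalings and filters, DESeq2 1.42.0, a replicate block, each library left out, halved counts, and summed opposite rows; 0 columns of the tables were left unmapped.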

Additional observations from a re-analysis of the deposited data

How the results depend on the processing

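The calls of Ets1, Ets2 and Elf1 in both lines held under every scaling, filter, test and left-out library run. They also held in DLM8 with opposite rows summed. Elf3 in DLM8, which had to differ, lost its call only when summed with Gm26642 (0.11, adjusted p = 0.652, edgeR). That row held 108 times its counts and so sets the sum. Over these alternatives Ets1 ranged from 1.61 to 2.15 in DLM8 and from 1.56 to 1.84 in Gracie, Ets2 from 0.92 to 1.14 and from 1.39 to 1.86, and Elf1 from 1.07 to 1.83 and from 1.42 to 2.17. The highest adjusted p was 0.0494, for Ets2 in DLM8. The replicate block gave 6846 called genes in DLM8, 2437 in Gracie and 1124 for the interaction, against 6037, 2148 and 914 without it, and changed no member call. Untreated replicates 1 and 3 of either line correlated best with the OMX library of their own number, and untreated replicate 2 did not.

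Leaving out 1 library gave 4564 to 6888 called genes in DLM8, 1222 (without OMX replicate 2) to 2387 in Gracie, and 654 to 999 for the interaction. Without a filter on low counts the median of all genes was 0.32 in DLM8 and 0.18 in Gracie, and by library size alone that of the difference between lines was 0.15. Genes lower in Gracie numbered 840, and 395 to 925 with 1 library left out (395 without OMX replicate 2, 495 without untreated replicate 2, 553 without OMX replicate 3). By library size alone, 241 shared genes had a lower response in DLM8, against 469.

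Signs of uncalled values turned. Etv1 in DLM8 was -0.021 with upper-quartile factors and -0.15 to 0.25 with a library left out, and in Gracie -0.015 by library size alone. Elk3 in DLM8 was -0.58 with rows summed. Gracie ETV4 was -0.53 to 0.25 with a library left out, positive without untreated replicate 2. By library size alone the difference between lines was 0.18 for Elf1 and 0.21 for Etv1. With a library left out it was -0.53 to 0.23 for Elf1, -0.27 to 0.14 for Etv1, -0.11 to 0.44 for Ets1 and -0.11 to 0.38 for Elk3. The cause was not tested. In Gracie, the shallower line, ELF3 and ELF4 had too few counts to be tested. Summing opposite rows was not run for Gracie, whose gene positions were not used here.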
